A study of Mus musculus with 75 samples.

Results

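A set of 9 genes of EF-hand proteins was followed across 75 single cochlear cells: Ocm, Pvalb, Calb1, Calb2, S100a1, S100b, Sri, Calm2 and Calm3. They were taken as a list of named genes, and all 9 of 9 were found among the 55291 genes of the count table. The study asked how closely supporting cells (SCs) of the adult mouse cochlea, driven by the transcription factors Atoh1 and Ikzf2, come to match outer hair cells (OHCs), the electromotile sensory cells that amplify sound. Every cell was Tdtomato+, was picked by hand and went into a Smart-Seq library without molecular identifiers, so that counts are reads and not molecules. The 17 WT_P30 OHCs came from Slc26a5 CreER/+; Ai9/+ mice given tamoxifen at P20 and P21 and collected at P30, and so carried 1 modified Slc26a5 allele. The 16 WT_P60 SCs came from Fgfr3-iCreER+; Ai9/+ mice given tamoxifen at P30 and P31 and collected at P60. The other 42 cells came from Fgfr3-Atoh1-Ikzf2-DTR mice, in which tamoxifen at P30 and P31 switched on Atoh1 and Ikzf2 in SCs under the Fgfr3-iCreER driver, and diphtheria toxin (20 ng/g) at P36 killed the OHCs that were already there. The DTR allele places the diphtheria toxin receptor behind a P2A site at the end of Slc26a5, so these cells too carried 1 modified Slc26a5 allele. These cells were collected at P60. The authors divided them by the transcripts of Myo7a and Slc26a5 (the gene of Prestin) into 11 OHC-like cells with both, 16 nascent HCs with Myo7a alone, and 15 SCs failing to become HCs with neither. In the counts this division was not sharp, since from 1 CPM on nascent HCs 1, 2 and 6 had Slc26a5 (8.74, 14.7 and 7.5 CPM), and SCs failing to become HCs 2, 7 and 15 had Myo7a (28, 2.25 and 18.9 CPM). The first of these also had Slc26a5, at 1.16 CPM. All mice were of the C57BL/6 strain.

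The EF-hand is a helix-loop-helix fold that binds a calcium ion in its loop. Proteins with this fold are usually divided into buffers, which take up calcium as it enters the cell and shape its time course, and sensors, which change shape with calcium and pass the signal to partner proteins. Hair cells are known for their high content of buffers, because calcium enters them through the transduction channels of the hair bundle and through the channels at their synapses. Oncomodulin, the product of Ocm, is the beta-parvalbumin and in the cochlea is known as a marker of OHCs. Pvalb encodes alpha-parvalbumin, Calb1 encodes calbindin and Calb2 encodes calretinin. S100a1 and S100b encode small S100 proteins, and S100b is widely used as a marker of glia and of cochlear SCs. Sri encodes sorcin, a penta-EF-hand protein that binds ryanodine receptors. Calm2 and Calm3 encode the same calmodulin protein.

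Values below are counts per 1000000 reads (CPM) after TMM scaling of the library size, and a gene was called detected where a cell reached 1 CPM before that scaling. Each library was 1 cell and the labels name no mouse, so the cells of a group may share an animal. A group was therefore treated as 1 sample, no test was made between groups, and the SD and n given describe the spread of cells. Total counts per cell lay between 4264780 and 22934062, with group medians from 5967735 in WT_P30 OHCs to 11377685 in nascent HCs, and intervals on shares of cells cover counting error only. Fewest genes were detected in WT_P30 OHCs (median 4777 per cell) and most in OHC-like cells (median 8488, with OHC-like cell 4 at 3348). By the library identifiers that the labels give, the cells were placed in 7 series, named A to G here. All WT_P30 OHCs lay in series F and all WT_P60 SCs in series G, so that cell type, age and library series cannot be told apart between these groups. The 42 cells of Fgfr3-Atoh1-Ikzf2-DTR mice lay in series A to E, which held no wild-type cell. In their comparisons with either wild-type group, library series, genotype and toxin cannot be told apart from cell type. Against WT_P30 OHCs the same holds for age and for the timing of tamoxifen. SCs failing to become HCs lay mostly in series C (10 cells) and A (4), and nascent HCs mostly in B (6), D (4) and E (4). The part of series in the differences between them was not tested. Each of 4 OHC genes (Slc26a5, Tmc1, Lmo7 and Myo7a) was found in all 17 OHCs and in 0 of 16 WT_P60 SCs. The 5 SC genes Sox2, Sox10, Fgfr3, Prox1 and Bace2 summed to between 1358 and 3491 CPM in WT_P60 SCs, and to between 0 and 161 CPM in WT_P30 OHCs. The 3 macrophage genes summed to 37.9 CPM in 1 WT_P30 OHC, and to 0 in every cell of the other 4 groups. Of the neuronal genes, Nefl was detected in 0 and Snap25 in 9 of the 11 OHC-like cells, and of the Schwann cell genes, Mbp was detected in 9 of them. In the 16 nascent HCs, Nefl was detected in 0, Snap25 in 10 and Mbp in 11. The 3 blood genes were found from 1 CPM in 3 of 11 OHC-like cells and reached 2306 CPM in 1 of them. Pecam1 of endothelium was detected in 9 of 16 WT_P60 SCs, where the endothelial genes summed to at most 296 CPM. Of the fibroblast genes, Pdgfra was detected in 15 of the 17 WT_P30 OHCs, and Col1a1 and Col1a2 in 0. The part of such transcripts in the values below was not tested. The mean level of Atoh1 was 5494 CPM in OHC-like cells, 5464 CPM in SCs failing to become HCs and 4944 CPM in nascent HCs.

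In GRCm38, with GENCODE M21 gene models, Ocm lies on the minus strand of chromosome 5 from 144019804 to 144026670, and Sri on the plus strand of the same chromosome from 8046078 to 8069379. Pvalb lies on chromosome 15 from 78191114 to 78206400, Calb1 on chromosome 4 from 15881264 to 15908064, and Calb2 on chromosome 8 from 110137502 to 110168210. S100a1 lies on chromosome 3 from 90511034 to 90514392, and S100b on chromosome 10 from 76253853 to 76261159. Calm2 lies on chromosome 17 from 87433412 to 87446935, and Calm3 on chromosome 7 from 16915379 to 16924114. No exon of the 9 genes overlaps an exon of another annotated gene. Calm2 and Calm3 have near-identical processed pseudogenes elsewhere in the genome (Gm7308 matches Calm2 at 96.9% over 447 bases, and Gm5881 matches Calm3 at 96.2% over 367 bases), so that their counts are uncertain where the counting could split reads between copies.

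Atoh1, which all 42 induced cells were given, is a basic helix-loop-helix factor, and factors of this family bind the E-box letters CANNTG. The promoter windows of 4 genes that differed widely between groups are therefore printed here, from 250 bases before to 50 bases after the RefSeq start, on the strand of the gene (GRCm38.p6). RefSeq windows were found for 6 of the 9 genes, and not for Calb1, Calb2 and Calm2. Capitals mark every CANNTG, which reads the same way on both strands. The Ocm window is chr5:144050560-144050859 (minus strand) and lies upstream of the GENCODE gene model given above. The Pvalb window is chr15:78206351-78206650 (minus strand), the S100b window is chr10:76253586-76253885 (plus strand), and the Sri window is chr5:8045828-8046127 (plus strand).
Ocm: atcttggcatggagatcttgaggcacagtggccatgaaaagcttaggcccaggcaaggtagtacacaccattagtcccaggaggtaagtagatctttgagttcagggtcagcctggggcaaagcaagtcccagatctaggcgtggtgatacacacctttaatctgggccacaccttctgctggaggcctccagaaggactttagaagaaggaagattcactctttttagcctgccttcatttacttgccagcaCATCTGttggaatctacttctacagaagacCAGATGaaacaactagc
Pvalb: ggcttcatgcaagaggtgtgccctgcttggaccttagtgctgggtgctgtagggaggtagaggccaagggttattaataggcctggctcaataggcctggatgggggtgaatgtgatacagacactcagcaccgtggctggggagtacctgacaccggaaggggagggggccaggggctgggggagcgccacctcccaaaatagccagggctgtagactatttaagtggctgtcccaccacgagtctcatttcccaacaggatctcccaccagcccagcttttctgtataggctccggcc
S100b: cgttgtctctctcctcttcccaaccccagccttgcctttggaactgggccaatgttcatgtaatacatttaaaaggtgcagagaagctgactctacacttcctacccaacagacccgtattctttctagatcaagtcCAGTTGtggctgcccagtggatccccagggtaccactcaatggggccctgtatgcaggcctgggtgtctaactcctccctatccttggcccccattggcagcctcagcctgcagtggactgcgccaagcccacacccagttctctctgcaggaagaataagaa
Sri: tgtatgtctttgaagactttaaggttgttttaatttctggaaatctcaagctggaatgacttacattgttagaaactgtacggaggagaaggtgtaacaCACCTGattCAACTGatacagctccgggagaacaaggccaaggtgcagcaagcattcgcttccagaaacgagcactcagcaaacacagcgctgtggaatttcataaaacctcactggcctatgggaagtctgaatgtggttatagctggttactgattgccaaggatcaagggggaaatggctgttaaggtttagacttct
The Ocm window held 2 matches to CANNTG, and both were CAGATG or its reverse complement CATCTG. The Sri window held 2 matches, the S100b window 1 match, and the Pvalb window printed here 0. A second RefSeq start of Pvalb, with the window chr15:78204188-78204487, had 2 matches, of which 1 was CATATG. The windows of S100a1 and Calm3 held 0. Among all 32851 RefSeq windows of this length, 72.3% held CANNTG, 17.2% held CAGATG on either strand and 3.91% held CATATG. A match is a run of letters and was not tested as a binding site.

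Ocm had the highest level per length of the 9 transcripts in OHCs, and every WT_P30 OHC lay above all other cells. In the 17 WT_P30 OHCs the level of Ocm ran from 9425 to 39794 CPM with a median of 25854, and the mean was 27448 ± 8633 CPM (SD, n = 17). In the 16 WT_P60 SCs, 1 read of Ocm was found in all libraries together. The ratio of summed counts between these groups was 3158808, with a 95% counting interval from 566943 to 124766489 that is set by this 1 read. This interval takes each read as a separate count and does not cover the spread of cells. OHC-like cells ran from 0 to 5571 CPM with a median of 285 and a mean of 1095 ± 1871 CPM (SD, n = 11). All 11 OHC-like cells lay below the lowest of the WT_P30 OHCs. The log2 ratio of the means was -4.65, and -5.41 without OHC-like cell 5, the highest of its group. Ocm was detected in 7 of the 11 OHC-like cells (exact 95% interval 30.8% to 89.1% for the counting of cells), in 6 of the 16 nascent HCs, and in 1 of the 15 cells that failed to become HCs. The 4 OHC-like cells without detected Ocm were replicates 1, 4, 7 and 10. In nascent HCs the mean of 412 ± 1618 CPM (SD, n = 16) rested on replicate 5, which stood at 6481 CPM, while the next highest cell had 32.7 CPM and the median was 0.292 CPM. Without nascent HC 5 the log2 ratio of nascent HCs to WT_P30 OHCs went from -6.06 to -11.83, and that of OHC-like cells to nascent HCs from 1.41 to 7.18. The 1 cell with detected Ocm among SCs failing to become HCs had 13.9 CPM.

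**Figure D1:**
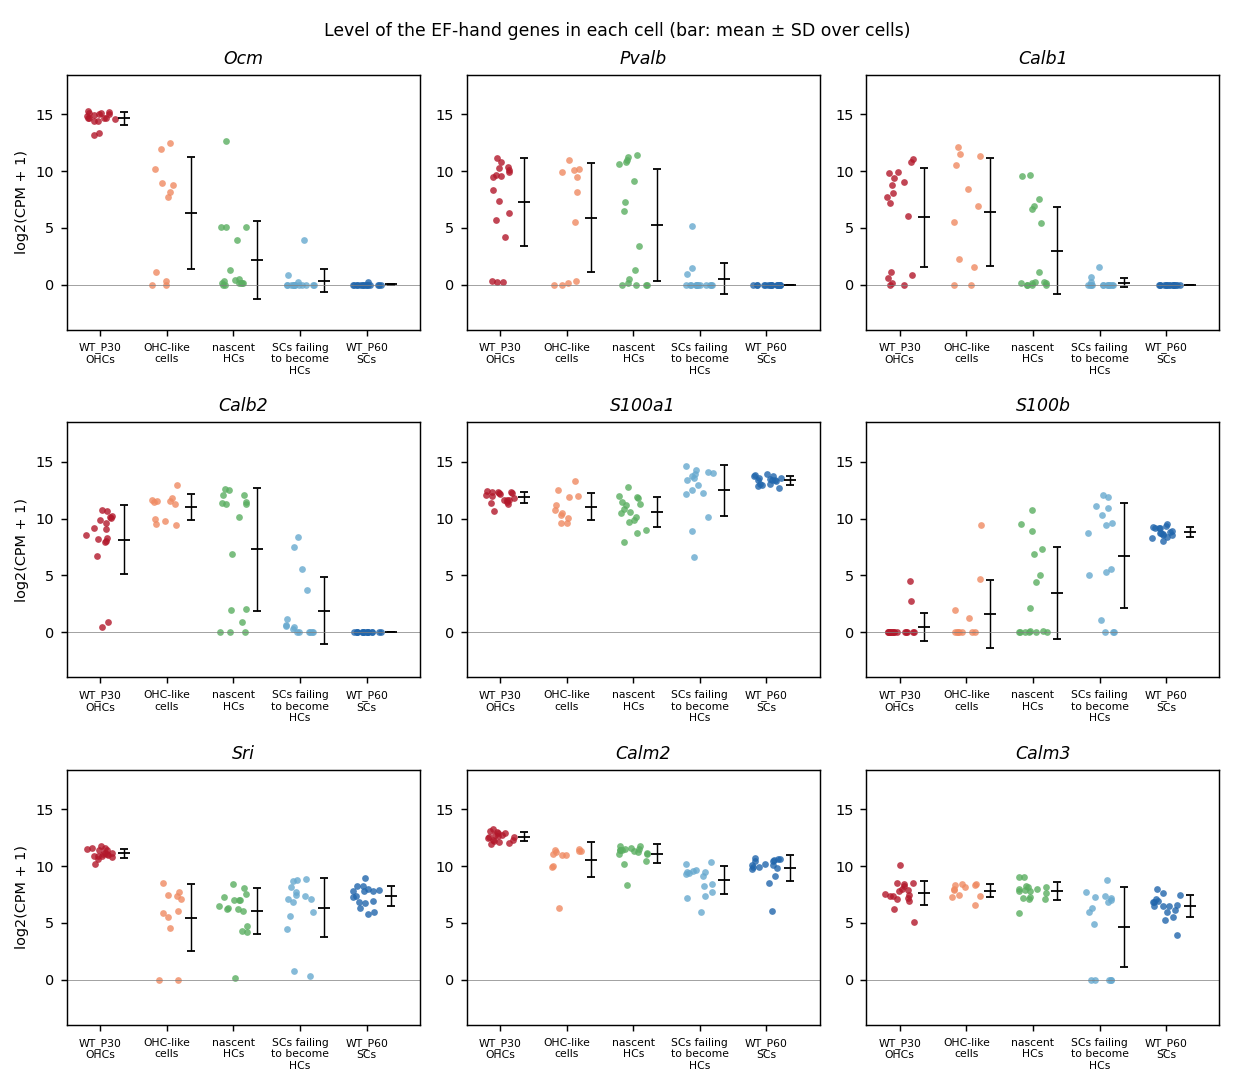
Each panel plots 1 of the 9 genes, with log2(CPM + 1) on the vertical axis and the 5 groups of cells side by side. Each point is a cell, and the bars give the mean and SD. The 17 WT_P30 OHCs sit above all other cells for Ocm, the OHC-like cells and nascent HCs spread from 0 to high values for Pvalb and Calb1, and the 16 WT_P60 SCs sit between 265 and 730.3 CPM for S100b.

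Pvalb was found in a part of the cells of each hair cell group and in no WT_P60 SC. In WT_P30 OHCs its level ran from 0.159 to 2279 CPM with a median of 730.4 and a mean of 677 ± 689 CPM (SD, n = 17). OHC-like cells ran from 0 to 1961 CPM (median 283, mean 568 ± 664, SD, n = 11), and nascent HCs from 0 to 2786 CPM (median 50.3, mean 718 ± 1029, SD, n = 16). The cells of these groups overlapped widely, with log2 ratios to WT_P30 OHCs of -0.25 for OHC-like cells and 0.08 for nascent HCs. Pvalb was detected in 14 of 17 WT_P30 OHCs, 7 of 11 OHC-like cells and 10 of 16 nascent HCs. No read of Pvalb was found in the 16 WT_P60 SCs, and 0 of 16 cells allows a share of up to 20.6% (exact 95% interval). Against WT_P60 SCs, Pvalb in WT_P30 OHCs was at least 25929-fold higher. The bounds were at least 21777-fold higher for OHC-like cells and at least 27498-fold for nascent HCs, where each bound sets the SC mean to 3 counts over the group. Of the 15 SCs failing to become HCs, 2 had Pvalb detected, the higher of which, replicate 7, had 35.2 CPM.

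Calb1 was highest on average in OHC-like cells, with a spread that covered the whole range. Its level ran from 0 to 4539 CPM in OHC-like cells (median 116, mean 1085 ± 1569.6, SD, n = 11), from 0 to 2191 CPM in WT_P30 OHCs (median 208, mean 480.3 ± 657, SD, n = 17), and from 0 to 826 CPM in nascent HCs (median 0.178, mean 126 ± 264, SD, n = 16). The log2 ratio of OHC-like cells to WT_P30 OHCs was 1.18 with means and -0.83 with medians, so that the direction between these groups depended on the summary. The log2 ratio of OHC-like cells to nascent HCs was 3.11, and 3.77 without nascent HC 12. No WT_P60 SC had a read of Calb1, and among SCs failing to become HCs it was detected in 1 cell, at 1.85 CPM. Within WT_P30 OHCs the 2 cells with the lowest Ocm, replicates 13 (9425 CPM) and 10 (10222 CPM), had the highest Calb1, at 2191 and 1807 CPM. Over all 17 OHCs the rank correlation of Ocm and Calb1 was weak (Spearman's rho -0.26), and over the 11 OHC-like cells it had the opposite sign (0.34).

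Calb2 was the buffer found in most induced cells. In OHC-like cells its level ran from 708 to 7823 CPM with a median of 2901 and a mean of 2665 ± 2047 CPM (SD, n = 11), and it was the only 1 of the 9 genes for which no OHC-like cell overlapped a WT_P60 SC. WT_P30 OHCs ran from 0.394 to 1726 CPM (median 529, mean 656 ± 542, SD, n = 17). The log2 ratio of OHC-like cells to WT_P30 OHCs was 2.02, and it fell to 1.71 when OHC-like cell 7 was left out and to 1.76 when counts were scaled by library size only. Nascent HCs ran from 0 to 6319 CPM (median 1785, mean 2035 ± 2229, SD, n = 16), with the gene detected in 12 of 16 cells. SCs failing to become HCs had a mean of 37.9 ± 92.5 CPM (SD, n = 15) and a median of 0.398, with 325 CPM in replicate 2 and 183 CPM in replicate 7. No WT_P60 SC had a read. Against WT_P60 SCs, the level of Calb2 in OHC-like cells was at least 102090.1-fold higher, that in nascent HCs at least 77969.9-fold and that in WT_P30 OHCs at least 25131-fold.

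S100a1 and S100b showed the opposite arrangement to the buffers, with their highest levels in SCs. S100a1 was detected in all 75 cells. Its level ran from 6572 to 15663 CPM in WT_P60 SCs (median 10837, mean 10889 ± 2688, SD, n = 16), and from 1585 to 5368 CPM in WT_P30 OHCs (median 4056, mean 3908 ± 1163, SD, n = 17), so that the cells of these groups did not overlap (log2 ratio of OHCs to SCs -1.48). Nascent HCs had the lowest mean, 2181 ± 1759 CPM (SD, n = 16, range 245 to 6916, median 1672), with a log2 ratio of -2.32 to WT_P60 SCs. OHC-like cells had 3022 ± 2876 CPM (SD, n = 11, range 758 to 10159.6, median 1713). SCs failing to become HCs had 10514 ± 7793 CPM (SD, n = 15), close to WT_P60 SCs in the mean (log2 ratio -0.05) but with cells from 98.9 to 26082 CPM.

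S100b was detected in all 16 WT_P60 SCs, from 265 to 730.3 CPM (median 434, mean 472 ± 135, SD, n = 16). It was detected in 2 of 17 WT_P30 OHCs, at 5.51 and 21.1 CPM, and the log2 ratio of OHCs to SCs was -8.24, or -10.42 without OHC 13. In SCs failing to become HCs it ran from 0 to 4329.8 CPM (median 429, mean 1049 ± 1444, SD, n = 15), with 12 of 15 cells positive. Nascent HCs ran from 0 to 1770.2 CPM (median 1.73, mean 207 ± 466, SD, n = 16), with 8 of 16 cells positive. OHC-like cells ran from 0 to 689.7 CPM (median 0, mean 65.3 ± 207, SD, n = 11), with 3 of 11 cells positive. The mean of OHC-like cells rested on replicate 1: its removal took the log2 ratio to WT_P60 SCs from -2.85 to -7.37, and the ratio to WT_P30 OHCs from 5.38 to 0.87. This cell had no Ocm, Pvalb or Calb1, had the highest S100a1 of its group at 10159.6 CPM, and had the lowest Myo7a of its group at 50 CPM.

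Sri and Calm2 were higher in every WT_P30 OHC than in any of the 42 induced cells. Sri ran from 1194 to 3513 CPM in WT_P30 OHCs (median 2197, mean 2306 ± 623, SD, n = 17) and from 52.4 to 489.6 CPM in WT_P60 SCs (median 192, mean 193 ± 112, SD, n = 16), a log2 ratio of 3.58. OHC-like cells ran from 0 to 372 CPM (median 64.4, mean 112 ± 113, SD, n = 11) and nascent HCs from 0.0862 to 342 CPM (median 83.6, mean 111 ± 92.8, SD, n = 16). All cells of both groups lay below the lowest WT_P30 OHC, with log2 ratios to OHCs of -4.36 and -4.38, and their means lay within the range of the WT_P60 SCs (log2 ratios -0.78 and -0.80). SCs failing to become HCs had 178 ± 156 CPM (SD, n = 15, range 0.279 to 450.2, median 138).

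Calm2 ran from 4063 to 9778 CPM in WT_P30 OHCs (median 6072, mean 6338 ± 1667, SD, n = 17), and from 66.1 to 1664 CPM in WT_P60 SCs (median 1076, mean 1069 ± 455, SD, n = 16), a log2 ratio of 2.57. OHC-like cells (mean 1971 ± 898, range 76.4 to 2938, median 2200.4, SD, n = 11) and nascent HCs (mean 2414 ± 845, range 314 to 3492, median 2658, SD, n = 16) lay between the wild-type groups, and none of their cells reached the lowest OHC. SCs failing to become HCs had 566 ± 368 CPM (SD, n = 15, range 60.6 to 1292, median 624). Calm3, which encodes the same protein, had means of 259 ± 243 CPM (SD, n = 17, range 32.9 to 1124, median 187) in WT_P30 OHCs, 244 ± 86.6 (SD, n = 11, range 95.1 to 349, median 248) in OHC-like cells, 248 ± 131 (SD, n = 16, range 55.7 to 539, median 235) in nascent HCs, 101 ± 117 (SD, n = 15, range 0 to 435, median 78.2) in SCs failing to become HCs and 106 ± 62 (SD, n = 16, range 14.2 to 251, median 91.8) in WT_P60 SCs. In none of the 7 comparisons was the ratio of Calm3 means past 4-fold.

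The order of the groups was then read from the mean log2(CPM + 1), and a step between neighbours was called beyond the spread when it exceeded the root mean square of their SDs. For Ocm the step from WT_P30 OHCs (14.65) to OHC-like cells (6.32) was beyond the spread, and the steps further down to nascent HCs (2.18), SCs failing to become HCs (0.33) and WT_P60 SCs (0.01) were within it. For Pvalb, Calb1 and Calb2 the step from nascent HCs to SCs failing to become HCs was beyond the spread (4.70, 2.83 and 5.41), and for Calb2 also the step from OHC-like cells down to WT_P30 OHCs (2.84). For Sri it was the step from WT_P30 OHCs to WT_P60 SCs (3.76), and for Calm2 the step from WT_P30 OHCs (12.58) to nascent HCs (11.08). For Calm3 it was the step from WT_P30 OHCs to WT_P60 SCs (1.15). For S100a1 and S100b no step between neighbours was beyond the spread.

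Counted by a ratio of group means over 4 (2 on the log2 scale), the 9 genes split as follows. Between WT_P30 OHCs and WT_P60 SCs, 6 genes were higher in OHCs (Ocm, Pvalb, Calb1, Calb2, Sri and Calm2) and 1 was lower (S100b), while of all 15467 genes with a mean of at least 1 CPM in either group 20.5% were higher and 30.3% lower. The median log2 ratio was 3.58 over the 9 genes and -0.28 over all genes. Between OHC-like cells and WT_P60 SCs, 4 genes were higher (Ocm, Pvalb, Calb1 and Calb2) and 1 lower (S100b), against 24.5% and 20.2% of all genes, with medians of 1.20 and 0.25. Between nascent HCs and WT_P60 SCs the same 4 genes were higher and S100a1 was lower, against 23.7% and 18.7% of all genes, with medians of 1.22 and 0.26. Between SCs failing to become HCs and WT_P60 SCs, 7 of the 9 genes had a mean of at least 1 CPM in either group, of which Pvalb (at least 96.5-fold) and Calb2 (at least 1450.3-fold) were higher and 0 lower, against 23.9% and 16.2% of all genes, with medians of -0.05 and 0.27. Without the single cells at the top, the log2 bound of Pvalb went from 6.59 to 2.83 (without replicate 7) and that of Calb2 from 10.50 to 9.38 (without replicate 2).

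Against WT_P30 OHCs, OHC-like cells had 2 genes higher (Calb2 and S100b) and 2 lower (Ocm and Sri), where 31% of all genes were higher and 16.4% lower, with medians of -0.25 over the 9 genes and 0.59 over all genes. Nascent HCs had 1 gene higher than WT_P30 OHCs (S100b, log2 ratio 7.05) and 2 lower (Ocm and Sri), against 31.4% and 16.1% of all genes, with medians of -0.84 and 0.56. The S100b ratio went to 6.04 without nascent HC 3 and to 9.23 without OHC 13, and in OHC-like cells it went from 5.38 to 7.57 without OHC 13. Calb1 in nascent HCs was just short of the limit, at -1.93, and went to -2.59 without nascent HC 12. Between OHC-like cells and nascent HCs, 1 gene was higher (Calb1) and 0 lower, against 11.7% and 13.1% of all genes, with medians of 0.02 and -0.01. These comparisons share their WT_P60 SCs or WT_P30 OHCs and are not independent of each other.

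Levels of different genes were compared per length, as transcripts per 1000000 (TPM) computed from the counts and the exon length of each gene. In WT_P30 OHCs the summed level of the 9 genes was 112999 ± 22566 TPM (SD, n = 17), and Ocm made up a mean of 74.6% of this sum, S100a1 12.4%, Calm2 9.41%, Pvalb 1.3%, Sri 1%, Calb2 0.781% and Calb1 0.28%. Ocm was the member with the highest TPM in 17 of 17 OHCs. In WT_P60 SCs the sum was 44995 ± 8868 TPM (SD, n = 16), and S100a1 made up 92.8% of it, Calm2 4.74% and S100b 1.99%. OHC-like cells had a sum of 21298 ± 13947 TPM (SD, n = 11), of which S100a1 made up 42.4%, Calb2 17.9%, Calm2 16.6%, Ocm 11.1% and Pvalb 7.5%. Nascent HCs had a sum of 16717 ± 6776 TPM (SD, n = 16), of which S100a1 made up 43.2%, Calm2 25.2%, Calb2 13.8%, Pvalb 9.87% and Ocm 3.79%. S100a1 was the member with the highest TPM in 7 of 11 OHC-like cells, 10 of 16 nascent HCs and 16 of 16 WT_P60 SCs, and in 14 of the 15 SCs failing to become HCs. Ocm was so in 1 OHC-like cell and 1 nascent HC, in each case replicate 5.

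**Figure D2:**
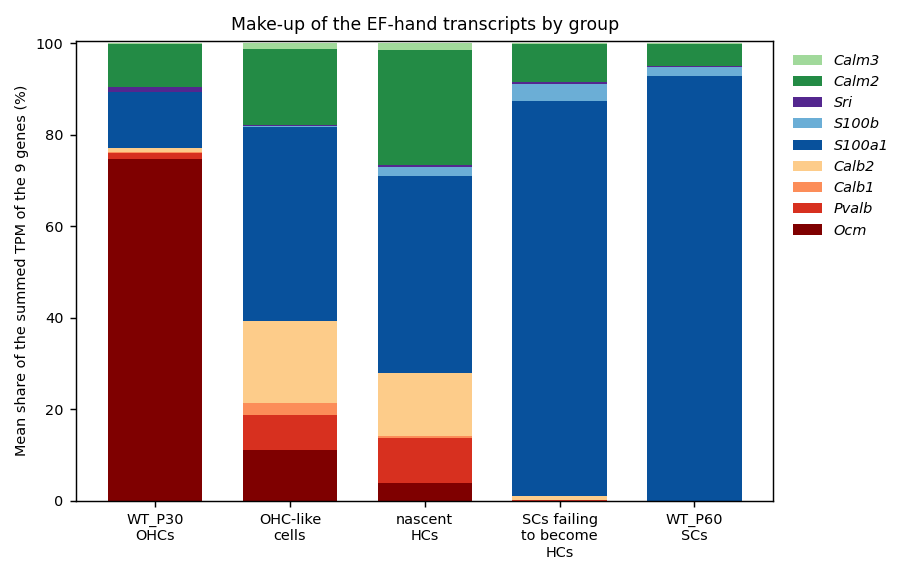
Stacked bars give the mean share, in percent, of each of the 9 genes in their summed TPM, for the 5 groups of cells. Ocm takes 74.6% of the bar of WT_P30 OHCs, S100a1 takes 92.8% of the bar of WT_P60 SCs, and in OHC-like cells and nascent HCs S100a1, Calm2 and Calb2 take the largest shares.

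Read cell by cell, the 4 buffer genes Ocm, Pvalb, Calb1 and Calb2 were nested in WT_P30 OHCs, where Ocm was in every cell. All 12 cells with detected Calb1 also had Pvalb, all 14 cells with Pvalb also had Calb2, and all 15 cells with Calb2 had Ocm. All 4 buffers were detected in 12 of 17 OHCs, while replicates 12 and 14 had Ocm and none of the other 3. Replicates 12 and 14 also had the fewest genes detected of the 17 OHCs (3864 and 3630, group median 4777). The part of the number of genes in this nesting was not tested. In the 42 cells of Fgfr3-Atoh1-Ikzf2-DTR mice, Calb2 took in the other 3 genes, which were not nested among themselves. All 14 cells with Ocm, all 19 cells with Pvalb and all 17 cells with Calb1 had Calb2, which was detected in 28 cells. Ocm was found without Pvalb in 4 cells and Pvalb without Ocm in 9, Calb1 without Pvalb in 3 and Pvalb without Calb1 in 5, and Ocm without Calb1 in 3 and Calb1 without Ocm in 6. With a limit of 10 CPM, the 13 cells with Ocm, 16 with Pvalb and 13 with Calb1 were again all among the 24 cells with Calb2. All 4 buffers were detected in 4 of 11 OHC-like cells and 4 of 16 nascent HCs, and in 0 of the 15 SCs failing to become HCs. Cells with none of the 4 numbered 0 among OHC-like cells, 4 among nascent HCs (replicates 3, 7, 15 and 16), 10 among SCs failing to become HCs and 16 among WT_P60 SCs. Among the 11 OHC-like cells, Ocm and Pvalb were detected together in 4 cells, Ocm alone of the pair in 3 and Pvalb alone in 3, and replicate 1 had neither.

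**Figure D3:**
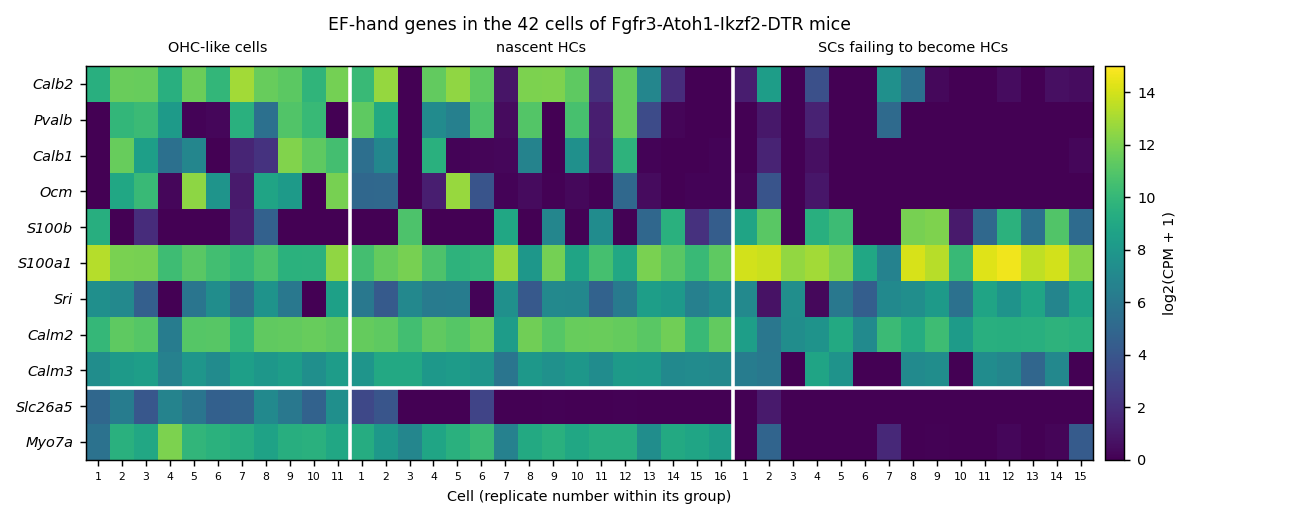
The heatmap shows log2(CPM + 1) of the 9 genes, and of Slc26a5 and Myo7a below the white line (rows), in each of the 42 cells of Fgfr3-Atoh1-Ikzf2-DTR mice (columns), ordered by group and replicate. Calb2 is high in all 11 OHC-like cells and in most nascent HCs, and Ocm, Pvalb and Calb1 are present in a part of the same cells. S100b is found mainly in SCs failing to become HCs and in nascent HCs with Pvalb below 10 CPM.

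Pvalb and S100b divided the nascent HCs. S100b was detected in 8 of these 16 cells (replicates 3, 7, 9, 11, 13, 14, 15 and 16), and in these 8 cells Pvalb ran from 0 to 9.73 CPM. In the other 8 cells Pvalb ran from 91 to 2786 CPM. Ocm and S100b were detected together in 0 of 16 nascent HCs, and 6 cells had Ocm alone and 8 had S100b alone. In the 3 OHC-like cells with S100b the pattern differed, since replicates 3 and 8 also had Pvalb (1177 and 45.6 CPM) and Ocm (1151 and 430.1 CPM). Over the 42 induced cells, Pvalb and S100b were detected together in 5 and Calb1 and S100b in 4. At a limit of 10 CPM, Pvalb and S100b were found together in 1 of the 42 induced cells (OHC-like cell 8, with 45.6 CPM of Pvalb and 24.4 CPM of S100b), and Calb1 and S100b in 0. Both kinds of nascent HC occurred within library series B, D and E. In series B, replicate 7 had S100b with Pvalb at 0.366 CPM, and the other 5 cells had no detected S100b with Pvalb from 91 to 2463 CPM. In series D, replicates 11 and 13 had S100b with Pvalb at 1.36 and 9.73 CPM, and replicates 10 and 12 lacked S100b with Pvalb at 1567 and 2786 CPM. In series E, replicates 14, 15 and 16 had S100b with Pvalb from 0 to 0.131 CPM, and replicate 2 lacked S100b with Pvalb at 545 CPM. Calb2 did not follow this division in every cell, since nascent HC 9 had 117 CPM of S100b, no Pvalb and 4381 CPM of Calb2.

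**Figure D4:**
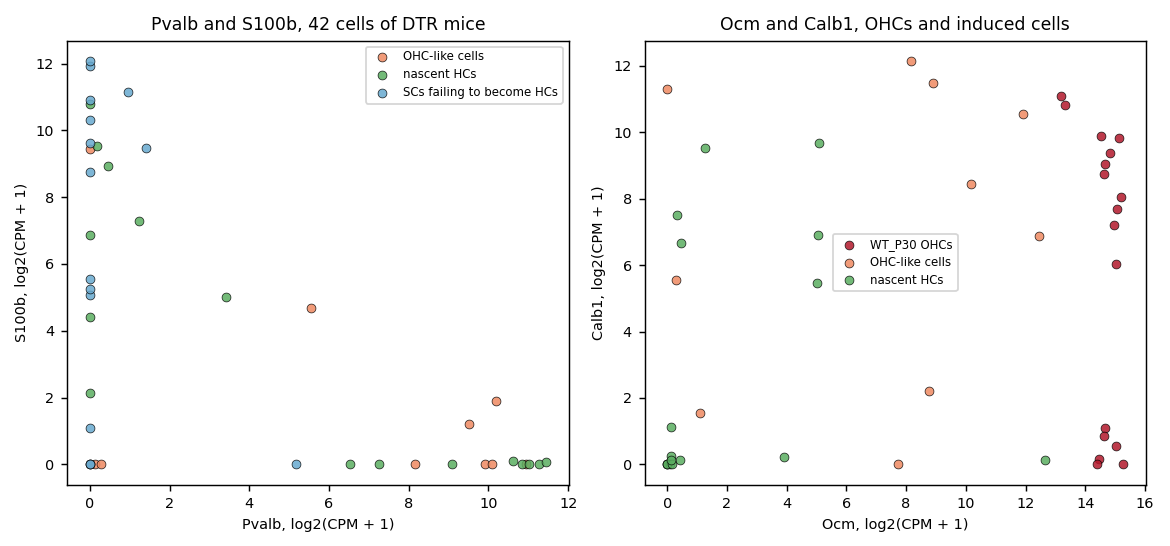
Each point is a cell on log2(CPM + 1) axes. The left panel sets Pvalb against S100b in the 42 cells of Fgfr3-Atoh1-Ikzf2-DTR mice, where points lie along the axes and 1 cell has both genes from 10 CPM, and the right panel sets Ocm against Calb1 in WT_P30 OHCs, OHC-like cells and nascent HCs, where Spearman's rho is -0.26 over the 17 OHCs and 0.34 over the 11 OHC-like cells.

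Rank correlations over cells are given as a description, since the cells share library series, differ in depth and may share mice. Over the 16 nascent HCs, Spearman's rho was -0.89 between Ocm and S100b, -0.73 between Pvalb and S100b, 0.81 between Pvalb and Calb1, and 0.69 between S100b and Sri. Of these 16 cells, 14 had a read of Ocm but only 6 reached the detection limit of 1 CPM. The rho of Ocm and S100b therefore partly ranks counts of a few reads under that limit. With the number of genes detected in these 16 cells, rho was 0.79 for Calb1, 0.71 for Pvalb, 0.53 for Ocm, -0.43 for S100b and -0.53 for Sri. The part of the number of genes in these values was not tested. Over the 17 WT_P30 OHCs, rho was 0.69 between Pvalb and Calb2, 0.55 between Pvalb and Calb1, 0.57 between Calb1 and Calb2 and -0.75 between Calb1 and Sri. With the number of genes detected in these 17 OHCs, rho was 0.53 for Calb1, 0.49 for Pvalb, 0.39 for Calb2 and -0.11 for Sri. Its part in the values of the OHCs was not tested either. The groups among the 42 induced cells themselves differ. Over these 42 cells, rho was 0.76 between Ocm and Calb2, 0.76 between Pvalb and Calb1 and 0.68 between S100a1 and S100b. Within OHC-like cells these were 0.69, 0.60 and 0.35, and within nascent HCs 0.65, 0.81 and 0.61. In SCs failing to become HCs they were 0.57, 0.57 and 0.54, with Ocm and Calb1 each detected in 1 cell. With the number of genes detected in the 42 cells, rho was 0.58 for Calb1, 0.49 for Calb2, 0.48 for Pvalb and 0.42 for Ocm. It was -0.22 for S100a1 and -0.32 for S100b, and the part of gene number was not tested.

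The comparison of OHC-like cells with nascent HCs could also be made within library series. For Calb1, the log2 ratio of means was 2.19 in series B (5 and 6 cells), 2.59 in series D (3 and 4 cells) and 6.06 in series E (2 and 4 cells), against 3.11 over all cells, and in series A (1 and 1 cell) Calb1 was at 0 in both. For Ocm it was 0.45 in series B, which holds nascent HC 5, 4.84 in series D and 7.92 in series E. For S100b it was -1.36 in series A, -7.19 in series B and -2.46 in series D, and in series E both OHC-like cells were at 0. For Pvalb the ratios were -1.18, -0.26 and 2.01 in series B, D and E, and had no common direction. The same held for Calb2, with -0.33 in series B, 1.70 in series D and 0.53 in series E, and in series A the OHC-like cell had 708 CPM and the nascent HC 0.

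Genes among the 3 most like each member by Spearman's rho were listed over all 75 cells, where the groups themselves differ. They were Dner (0.89), Selenow (0.85) and Slc26a5 (0.85) for Ocm. For Pvalb they included Calb1 (0.83) and Chrna9 (0.81), and for Calb2 Chrna9 (0.83), Lhfpl5 (0.81) and Aplp1 (0.81). Chrna9 encodes a subunit of the acetylcholine receptor of hair cells. For S100b they were Marcksl1 (0.86), Kcnj16 (0.84) and Pgm5 (0.82), and for S100a1 Skp1a (0.79), Bace2 (0.78) and Lad1 (0.78). For Calm2 they were Smpx (0.80), Gm6558 (0.79) and Strc (0.78), the last of which encodes stereocilin of the hair bundle. For Sri they were Lgalsl (0.73), Atp5j (0.73) and Gm5111 (0.72), for Calm3 Sult4a1 (0.69), Chrna9 (0.64) and Kif5c (0.63), and for Calb1 they included Pvalb (0.83) and Ica1l (0.79). Over the 42 induced cells alone, the list for Ocm included Lhfpl5 (0.80) and Gipc3 (0.77), and the lists of the other buffers were, for Pvalb Ecel1 (0.89), Chga (0.86) and Gm29374 (0.85), for Calb1 Fam57b (0.86), Gm4131 (0.83) and Galnt9 (0.82), and for Calb2 Nrsn1 (0.85), Lhfpl5 (0.83) and Gas6 (0.82). Lhfpl5 is a part of the transduction channel complex of hair cells. The groups among the 42 induced cells also differ from each other.

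The other EF-hand genes were read from a list of 79 genes. Between WT_P30 OHCs and WT_P60 SCs, 49 of the 79 had a mean of at least 1 CPM in either group, of which 11 (22.4%) were more than 4-fold higher in OHCs and 14 (28.6%) lower, close to the 20.5% and 30.3% of all genes. For OHC-like cells against WT_P60 SCs, 49 were read, of which 13 (26.5%) were higher and 9 (18.4%) lower, against 24.5% and 20.2% of all genes. For OHC-like cells against WT_P30 OHCs, 53 were read, of which 17 (32.1%) were higher and 10 (18.9%) lower, against 31% and 16.4% of all genes. Of the 15 other S100 genes, 5 were read between WT_P30 OHCs and WT_P60 SCs, and 4 of them were lower in OHCs and 0 higher.

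Cib2, which encodes a protein of the hair cell transduction complex, had a mean of 3691 CPM in WT_P30 OHCs, 3902 in OHC-like cells, 2392 in nascent HCs, 816 in SCs failing to become HCs and 110.1 in WT_P60 SCs. Calml4, a calmodulin-like gene, had a mean of 1440.4 CPM in WT_P30 OHCs, 1068 in OHC-like cells and 555 in nascent HCs, and no read in WT_P60 SCs. Cabp2, a regulator of the calcium channels of hair cell synapses, was at 1048 CPM in WT_P30 OHCs, and at 51.6 in OHC-like cells and 51.7 in nascent HCs (log2 ratio of OHC-like cells to OHCs -4.34). Pls1, which encodes plastin 1, an actin-bundling protein of stereocilia, had means of 566, 437, 545 and 562 CPM in the order WT_P30 OHCs, OHC-like cells, nascent HCs and then SCs failing to become HCs, and of 46.3 CPM in WT_P60 SCs.

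S100a10 had no read in WT_P30 OHCs, and means of 283 CPM in WT_P60 SCs, 269 in OHC-like cells, 167 in nascent HCs and 449 in SCs failing to become HCs. S100a6 and S100a11 were highest in SCs failing to become HCs, at 1643 and 128 CPM, where WT_P60 SCs had 1.29 and 14.9 CPM. Gca, which encodes grancalcin, a penta-EF-hand protein as sorcin is, had no read in WT_P30 OHCs and means of 148 CPM in WT_P60 SCs and 66 CPM in OHC-like cells. Ncald and Necab2, which encode calcium-binding proteins known from neurons, had no read in WT_P60 SCs and means of 42.1 and 112 CPM in WT_P30 OHCs and 55.3 and 27.2 CPM in OHC-like cells. Pls3 and Lcp1, the genes of the other plastins, were highest in SCs failing to become HCs (197 CPM) and in WT_P60 SCs (1496 CPM), and stood at 2.2 and 17.9 CPM in OHC-like cells. Efhd2, an actin-binding EF-hand protein, had means of 296 CPM in WT_P30 OHCs, 86.6 in WT_P60 SCs and 6.51 in OHC-like cells.

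**Figure D5:**
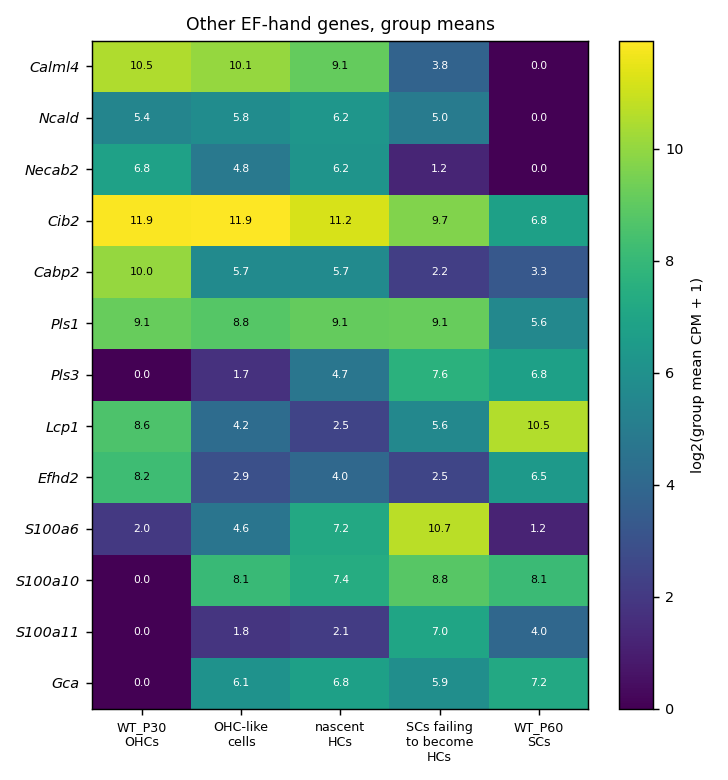
The heatmap shows the log2 of group mean CPM + 1 for 13 other EF-hand genes (rows) in the 5 groups of cells (columns). The means of each of Cib2, Calml4 and Pls1 lie within 4-fold of each other in WT_P30 OHCs, OHC-like cells and nascent HCs, Cabp2 and Efhd2 are highest in WT_P30 OHCs, and S100a10 and Gca have no read in WT_P30 OHCs and are present in the other 4 groups.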

How the data were processed

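Read counts per gene of 75 single cells, 1 library each, were used as deposited. Per the methods and labels, the authors used Trimmomatic 0.39 for trimming, HISAT2 2.1.0 for alignment to GRCm38 (mm10) and HTSeq 0.10.0 for the raw counts per gene that they deposited, without normalization. The strand setting and the annotation release of the counting are not given in the sources used here. A row for WPRE, a vector element with 0.0254% of all counts, was left out. All cell columns were matched to samples by name.

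Library sizes were scaled by the trimmed mean of M values (TMM, edgeR 4.0.16, R 4.3.3) on the 11443 genes kept with a minimum count of 10. Ratios were taken between group means of CPM, with a floor of 3 counts over the group, for 7 comparisons. Each library was 1 cell of an unnamed mouse, so that no test was made. TPM used GENCODE M21 exon lengths. The calculation was checked on simulated data. Alternatives were other scalings (DESeq2 1.42.0 size factors, TMMwsp, library size only), medians or summed counts, other limits of fold and level, thinning, each cell left out in turn, and single library series. The 9 genes and all lists were chosen with earlier results of these data known. Named were all 9 genes, 13 other EF-hand genes (the 3 with the largest ratios in each direction between WT_P30 OHCs or OHC-like cells and WT_P60 SCs, plus Cib2, Cabp2, Pls1, S100a6, S100a10 and S100a11), the 3 genes most like each member, and reference and marker genes, some of which are not reported here. Columns of authors' comparisons were not used. Promoter windows are from RefSeq.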

Additional observations from a re-analysis of the deposited data

Results flagged for a closer look

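The count table also held a row for WPRE, an element used in transgenes and viral vectors to stabilise transcripts, which took no part in the comparisons of the EF-hand genes. It is listed here because it is a signal outside the main measurement that lay above the limit a count of 0 allows, in cells of all 5 groups. WPRE was found from 1 CPM in 74 of the 75 cells, with group medians of 56.1 CPM in WT_P30 OHCs (16 of 17 cells), 157 CPM in OHC-like cells, 153 CPM in nascent HCs, 208 CPM in SCs failing to become HCs and 692 CPM in WT_P60 SCs.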

How the results depend on the processing

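No paired analysis was possible because the values come from no test and the replicate numbers only name cells, and ratios within library series stand in the report as values. Of the log2 ratios of the 9 genes under all alternatives, 514 of 596 moved by less than 1.5-fold and 82 by 1.5-fold or more. Of those past the limit, 0 changed sign. Of 176 counts of the 9 genes past the fold, 144 stayed within 1.5 times the main count and 32 did not. Between OHC-like cells and WT_P30 OHCs, the count higher in OHC-like cells went from 2 to 1 with library size only, DESeq2's size factors, and with TMMwsp, where Calb2 passed below the limit, and with medians, where S100b was at 0 in both groups. Between OHC-like cells and WT_P60 SCs, the count lower went from 1 to 2 with DESeq2's size factors, medians, summed counts and a log2 limit of 1, S100a1 joining S100b. With medians, the other counts that moved were 2 higher and 2 lower in nascent HCs against WT_P60 SCs, 0 higher in SCs failing to become HCs, 4 lower in nascent HCs against WT_P30 OHCs, and 3 higher and 1 lower in OHC-like cells against nascent HCs. A log2 limit of 1 gave 2 lower in WT_P30 OHCs against WT_P60 SCs, 2 lower in nascent HCs against WT_P60 SCs, 2 higher and 4 lower in nascent HCs against WT_P30 OHCs, and 2 higher and 1 lower in OHC-like cells against nascent HCs. SCs failing to become HCs had 1 gene higher than WT_P60 SCs among genes from 10 CPM and 4 with no limit on low values. Within library series, OHC-like cells against nascent HCs gave 1 lower in series B, 2 higher and 1 lower in series D, and 3 higher and 1 lower in series E. Leaving out each cell in turn gave 1 to 2 higher in OHC-like cells against WT_P30 OHCs, 1 to 2 lower in OHC-like cells and in nascent HCs against WT_P60 SCs, and 1 to 2 higher and 0 to 1 lower in OHC-like cells against nascent HCs. Scaling moved the median log2 ratio over all genes, for OHC-like cells against WT_P30 OHCs, from 0.59 (TMM) to 0.32 (library size only). With a limit of 1 read in place of 1 CPM, Ocm was found in 14 of 16 nascent HCs instead of 6, and Calb1 in 12 instead of 7. Thinning every cell to 4264780 reads left 45 of 45 counts of cells with a member detected within 1.5 times their main value. Means of groups in which few cells carry a gene rest on those cells, and the number of mice behind each group is not given in the sources used here.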
